A study of Homo sapiens with 4 samples.

Results

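The 10 genes described here are 9 members of the PARP family of ADP-ribosyltransferases (PARP1, PARP2, PARP4, PARP8, PARP9, PARP10, PARP12, PARP14 and the tankyrase TNKS) and DTX3L, the ubiquitin ligase that pairs with PARP9. They were taken by name from a count table of 40205 gene symbols so that interferon-linked and DNA-repair enzymes stood side by side, and all 10 passed the filter on low counts. The cells were A549, an established human lung adenocarcinoma line, transfected in 6-well plates with Lipofectamine iMAX and harvested after 24 h. Both groups received small interfering RNA (siRNA): a negative control in libraries 1 and 2 of the control group, and siRNA against the long non-coding RNA SBF2-AS1 in libraries Knockdown-670 and Knockdown-732. The labels do not say what those 2 numbers mean, whether the replicates were separate cultures, or which sequences the siRNAs had, and a p-value here speaks only of the spread among these 4 libraries, which could be purely technical. The libraries held 12149767 to 12938143 counts. SBF2-AS1 itself was at 4.41 and 5.97 CPM with control siRNA against 1.27 and 1.42 CPM in the knockdown, where CPM is the usual depth-scaled count, relative to library size times edgeR's TMM factor, and it fell by 1.94 on the log2 scale (SE 0.30, edgeR adjusted p = 3.19e-05).

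ADP-ribosyltransferases move ADP-ribose from NAD+ onto proteins or nucleic acids. PARP1 and PARP2 are switched on by DNA breaks and build poly(ADP-ribose) chains that gather repair factors, the tankyrases build chains on telomere and WNT-pathway proteins, and most other family members add a single ADP-ribose unit. PARP9, PARP10, PARP12 and PARP14 are known as interferon-stimulated genes in many cell types, as is DTX3L, and PARP9 and PARP14 carry macrodomains, which bind ADP-ribose. Interferon acts on such genes through DNA elements in their promoters, among them the interferon-stimulated response element (ISRE), bound by a complex that holds STAT2 and IRF9, and the gamma-activated site (GAS).

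The promoter sequences of DTX3L, PARP9, PARP14 and PARP12, which rose, are printed first, since they hold the letters of the ISRE close to their starts. That of PARP2, the member that fell most, follows for contrast. No window was at hand for PARP10, the member that rose most. RefSeq windows on GRCh38.p14, from 250 bases before to 50 bases after each annotated start, were at hand for 7 of the 10 genes (PARP1, PARP2, PARP8, PARP9, PARP12, PARP14 and DTX3L, 10 windows in all). Capitals mark a match to GAAANNGAAA, the ISRE core searched on both strands, and all windows are written 5′ to 3′ on the strand of their gene. DTX3L lies on the + strand at chr3:122564088-122564387, PARP9 on the - strand at chr3:122564251-122564550, PARP14 on the + strand at chr3:122680589-122680888, PARP12 on the - strand at chr7:140062902-140063201 and PARP2 on the + strand at chr14:20343385-20343684.
DTX3L: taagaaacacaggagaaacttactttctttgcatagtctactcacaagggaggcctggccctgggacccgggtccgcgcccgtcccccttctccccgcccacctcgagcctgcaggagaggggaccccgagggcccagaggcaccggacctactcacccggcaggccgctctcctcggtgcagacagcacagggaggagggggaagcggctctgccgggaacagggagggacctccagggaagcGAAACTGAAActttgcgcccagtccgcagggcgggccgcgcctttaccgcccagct
PARP9: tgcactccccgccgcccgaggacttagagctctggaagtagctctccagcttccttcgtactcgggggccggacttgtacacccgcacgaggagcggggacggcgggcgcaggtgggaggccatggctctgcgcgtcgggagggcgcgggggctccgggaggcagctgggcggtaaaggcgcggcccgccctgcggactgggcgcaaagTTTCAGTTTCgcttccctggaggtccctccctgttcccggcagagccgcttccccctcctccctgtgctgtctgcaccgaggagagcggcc
PARP14: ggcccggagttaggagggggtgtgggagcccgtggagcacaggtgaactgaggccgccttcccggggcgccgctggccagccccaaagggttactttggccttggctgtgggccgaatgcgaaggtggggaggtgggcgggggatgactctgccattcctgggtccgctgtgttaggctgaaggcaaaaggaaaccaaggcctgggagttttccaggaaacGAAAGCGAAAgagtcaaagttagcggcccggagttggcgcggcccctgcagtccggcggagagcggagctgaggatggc
PARP12: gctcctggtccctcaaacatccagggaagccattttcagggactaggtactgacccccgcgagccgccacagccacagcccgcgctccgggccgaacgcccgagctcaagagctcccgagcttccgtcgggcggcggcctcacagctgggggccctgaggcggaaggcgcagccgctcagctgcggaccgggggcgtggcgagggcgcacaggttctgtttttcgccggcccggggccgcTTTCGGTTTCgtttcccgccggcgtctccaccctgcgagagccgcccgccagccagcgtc
PARP2: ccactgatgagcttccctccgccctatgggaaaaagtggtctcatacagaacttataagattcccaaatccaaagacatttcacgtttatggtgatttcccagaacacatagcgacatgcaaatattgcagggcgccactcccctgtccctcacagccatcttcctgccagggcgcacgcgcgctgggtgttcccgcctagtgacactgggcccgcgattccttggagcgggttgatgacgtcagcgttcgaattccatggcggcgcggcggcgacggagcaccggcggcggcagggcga

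DTX3L and PARP9 are transcribed away from each other from starts 38 bases apart, and the windows printed above share 137 bases. Their ISRE match is the same stretch of DNA, chr3:122564332-122564341, read as GAAACTGAAA on the strand of DTX3L and as TTTCAGTTTC on that of PARP9. It spans positions -6 to 3 of DTX3L (0 is the first transcribed base) and -41 to -32 of PARP9. PARP9 has a further RefSeq start 446 bases from that of DTX3L, and the window around it held no match. PARP14 held GAAAGCGAAA at positions -29 to -20, and PARP12 held TTTCGGTTTC at positions -10 to -1. An ISRE match was thus present in windows of 4 of the 7 genes, with 1 stretch shared by PARP9 and DTX3L. By window it was 4 of 10, beside 3.57% of 35116 RefSeq promoter windows of the same length. The list was picked to hold interferon-linked genes, so this share describes the list and is not a test of enrichment. The GAS letters TTCNNNGAA, which read the same on both strands, were found in PARP14 at positions -40 to -32 and in PARP2 at positions -154 to -146, against 7.66% of all windows. The E2F letters TTTGGCGC or TTTCCCGC, searched on both strands, were found in PARP12 at positions 1 to 8, next to its ISRE match, against 2.27% of all windows. No pattern searched was found in the windows of PARP1 and PARP8. The matches shown in capitals and named here did not overlap one another, apart from the stretch that PARP9 and DTX3L share. A match describes letters and does not show that a factor binds there.

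**Figure D1:**
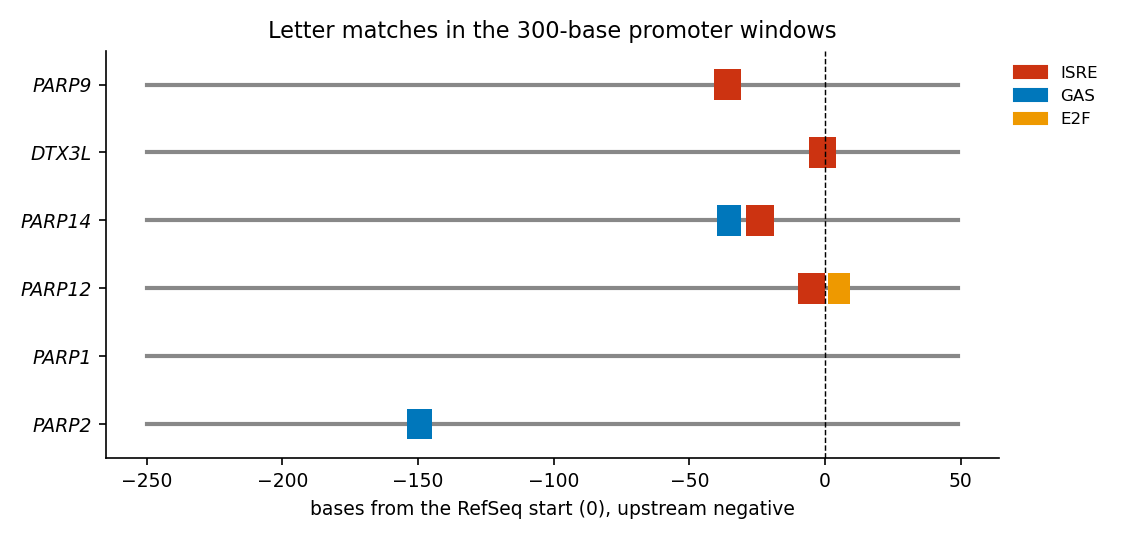
Positions of letter matches in the 300-base RefSeq windows of 6 genes, in bases from the start (0), with 1 line per gene and boxes for ISRE, GAS and E2F letters. ISRE matches lie within 41 bases upstream of the start in PARP9, PARP14 and PARP12 and across the start in DTX3L, and none lies in the windows of PARP1 and PARP2.

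Of the 10 genes, 7 were higher in the knockdown, 2 were lower and 1 (PARP8) did not pass the threshold of 0.05 on the adjusted p (edgeR quasi-likelihood fit of 16120 genes). Over all tested genes 46.3% passed, 23.5% higher and 22.8% lower, so the table as a whole moved widely. At least 2-fold higher were 5 of the 10 genes (PARP10, PARP9, PARP12, DTX3L and PARP14), against 5.57% of all tested genes. Both knockdown libraries lay above both controls for the 7 that rose, as for 36.4% of all genes, and below both for the 2 that fell, as for 36.2%. The median log2 fold change of the 10 genes was 0.83, beside -0.0024 over all tested genes. The members were brought together to set interferon-linked and DNA-repair enzymes side by side, with earlier results of these data known. These counts therefore describe the list and are not independent support for either direction.

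**Figure D2:**
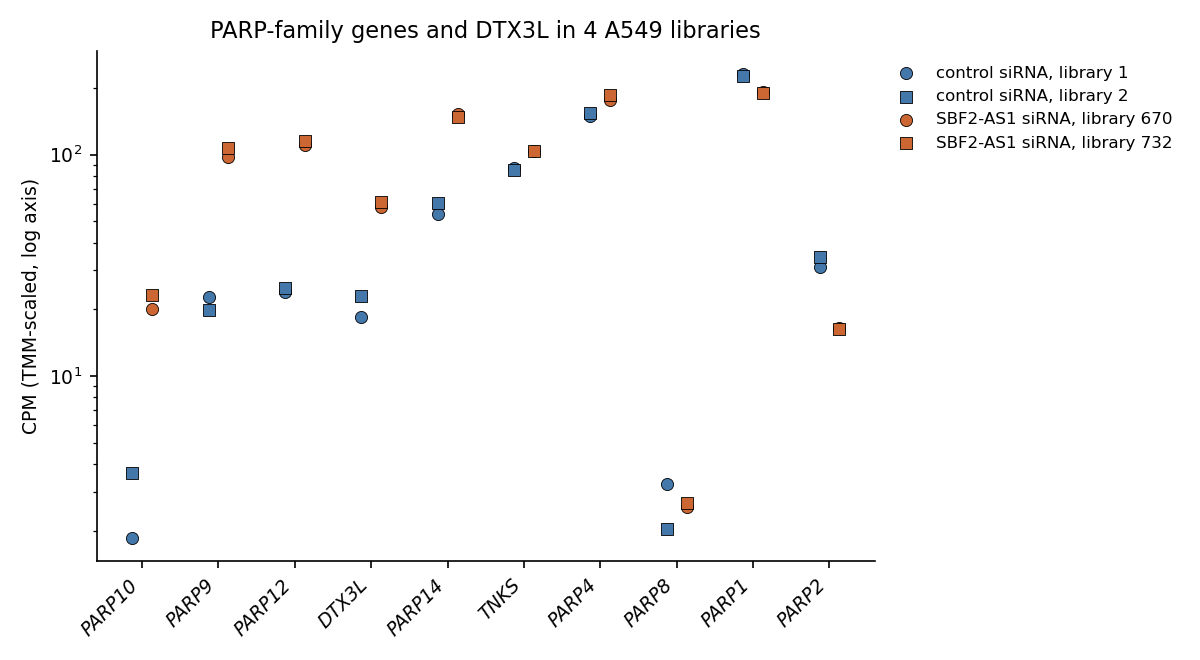
CPM (log axis) of the 10 genes in each of the 4 libraries, ordered by log2 fold change, with 1 point per library and colour for the siRNA. The knockdown points lie above the control points from PARP10 to PARP4 on the left, overlap them in PARP8, and lie below them in PARP1 and PARP2.

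Markers of the labelled cell type were read beside these results. All 7 epithelial and A549 markers had counts. Their summed level was 10700 to 11400 CPM (here scaled by library size) with control siRNA against 5831 to 6022 CPM in the knockdown. Of these markers 1 was higher and 5 were lower, beside 23.5% and 22.8% of all tested genes. Of 8 leukocyte markers, CD3E and HLA-DRA were at 0 in every library, PTPRC had 1 count in 1 library, and LYZ had at most 2 counts. The leukocyte list summed to 74.1 to 75.9 CPM with control siRNA against 172 to 189.9 CPM in the knockdown, and on the same scale CD68, a lysosomal protein, gave 57.6 and 59.1 CPM of it with control siRNA (75.9% and 79.8%) against 175.4 and 157.5 CPM in the knockdown (92.4% and 91.4%). Without CD68, the sum over the other 7 was 15.0 to 18.3 CPM with control siRNA against 14.5 to 14.7 CPM in the knockdown. The part of the epithelial markers or of CD68 in the changes of the 10 genes was not tested. Fibroblast markers summed to 10.2 to 10.3 and 10.9 to 13.3 CPM, and endothelial and erythroid markers to under 1 CPM in each library. In bulk samples, fewer cells of a type and less RNA per cell cannot be told apart.

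Among the interferon-linked members the gene with the largest fold change was PARP10, a mono-ADP-ribosyltransferase first described as a partner of MYC. It was at 1.86 and 3.63 CPM in control libraries 1 and 2, against 20.0 CPM in Knockdown-670 and 23.3 CPM in Knockdown-732. Both knockdown libraries stood far above both controls, while the controls themselves differed (24 and 48 counts). Counting error alone (exact Poisson, 95%) put control library 1 between 1.19 and 2.76 CPM, control library 2 between 2.67 and 4.81 CPM, Knockdown-670 between 17.6 and 22.8 CPM and Knockdown-732 between 20.7 and 26.1 CPM. PARP10 rose 7.87-fold (log2 fold change 2.98, SE 0.22, edgeR adjusted p = 1.57e-08), with a log2 fold change of 2.57 without control library 1 and 3.54 without control library 2. Its annotated span overlaps GRINA on the opposite strand, which was at 219.5 and 209.6 CPM with control siRNA against 420.4 and 414 CPM in the knockdown (log2 fold change 0.96, SE 0.07, edgeR adjusted p = 1.7e-09). The sources used here do not say whether strand was used in counting, and the part of GRINA reads in the PARP10 counts was not tested.

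PARP9, a macrodomain protein that forms a complex with DTX3L, was at 22.8 and 19.8 CPM in control libraries 1 and 2, against 97.4 CPM in Knockdown-670 and 107 CPM in Knockdown-732. The groups were far apart beside a difference of a few CPM between the controls, and PARP9 rose 4.80-fold (log2 fold change 2.26, SE 0.10, edgeR adjusted p = 2.34e-12). PARP12, a CCCH zinc-finger enzyme with antiviral activity in other systems, was at 24.0 and 25.02 CPM in control libraries 1 and 2, against 111 CPM in Knockdown-670 and 116 CPM in Knockdown-732. Its replicates lay close together in each group, and it rose 4.61-fold (log2 fold change 2.21, SE 0.09, edgeR adjusted p = 8.14e-13), a log2 fold change within 1 SE of that of PARP9.

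DTX3L, a ubiquitin ligase of the deltex family, was at 18.4 and 23.1 CPM in control libraries 1 and 2, against 57.7 CPM in Knockdown-670 and 60.9 CPM in Knockdown-732. Its groups did not overlap, and it rose 2.86-fold (log2 fold change 1.52, SE 0.11, edgeR adjusted p = 2.76e-09). PARP14, the largest macrodomain member and a co-activator of STAT6, was at 54.0 and 60.5 CPM in control libraries 1 and 2, against 152 CPM in Knockdown-670 and 148 CPM in Knockdown-732. Its groups did not overlap, and it had the smallest log2 fold change of these 5 genes, rising 2.62-fold (log2 fold change 1.39, SE 0.08, edgeR adjusted p = 9.25e-11). By library, the difference in log2 CPM from the control mean was 2.87 and 3.09 for PARP10, 2.19 and 2.33 for PARP9, 2.17 and 2.23 for PARP12, 1.48 and 1.56 for DTX3L and 1.41 and 1.37 for PARP14, for Knockdown-670 first and Knockdown-732 second. For each of these genes the difference between the 2 knockdown libraries was small beside their distance from the controls.

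PARP9 and DTX3L share their start region, and PARP9 rose by the larger fitted fold change. The ratio of PARP9 to DTX3L counts was 1.24 and 0.859 with control siRNA, against 1.69 in Knockdown-670 and 1.76 in Knockdown-732, so it was higher in both knockdown libraries than in either control. With 2 libraries against 2 an exact permutation test (two-sided) cannot go below p = 0.333, and no other test of this ratio was run. The ratio of PARP14 to DTX3L was 2.93 and 2.62 with control siRNA against 2.63 and 2.43 in the knockdown, and the groups overlapped. The annotated spans of PARP9 and DTX3L overlap on opposite strands at their 5′ ends, and exchange of reads between them was not tested.

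The starts of PARP9, DTX3L and PARP14 lie within 116.4 kb of each other on 3q21.1, and the surrounding genes were followed as neighbours. PARP15, a macrodomain member between DTX3L and PARP14, had 0 counts in all 4 libraries, which allows up to 0.227 to 0.255 CPM per library (3 counts). Of the 10 neighbours, PARP15 included, 8 were tested: 2 rose, 2 fell and 4 did not pass. Their median log2 fold change was -0.16, and over all tested genes 23.5% rose and 22.8% fell. KPNA1, an importin whose start is 49.3 kb from that of DTX3L, was at 75.5 and 68.1 CPM with control siRNA against 56.8 and 61.9 CPM in the knockdown and fell by 0.27 on the log2 scale (SE 0.09, edgeR adjusted p = 0.0134). CCDC58, 181 kb away on the same side, was at 11.2 and 10.1 CPM with control siRNA against 2.29 and 2.68 CPM in the knockdown and fell by 2.09 (SE 0.21, edgeR adjusted p = 2.17e-07). FAM162A, whose start lies beside that of CCDC58, was at 26.5 and 24.2 CPM with control siRNA against 39.6 and 37.0 CPM in the knockdown and rose 1.51-fold, and PDIA5, a disulfide isomerase of the endoplasmic reticulum 503 kb away on the other side, rose 1.37-fold. WDR5B (-0.26), CSTA (0.56), HSPBAP1 (-0.07) and DIRC2 (-0.29) did not pass, with these log2 fold changes, and SEMA5B, at 2 to 11 counts, was not tested. The fall of CCDC58 passed in all 15 alternatives run. That of KPNA1 passed in 10 and was lost in DESeq2, against a 1.2-fold minimum, when GC content and length were corrected for, without control library 1 and without Knockdown-670 (adjusted p 0.00349 to 0.407 over the alternatives), and with library size only DIRC2 also fell.

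**Figure D3:**
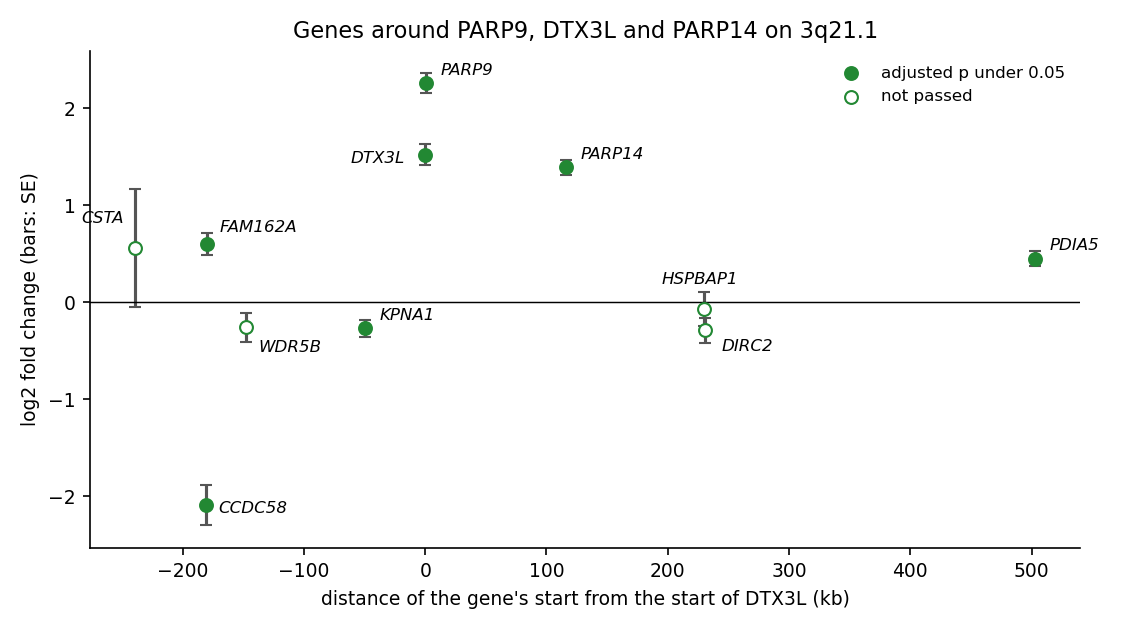
Log2 fold change (bars are SE) of tested genes around PARP9, DTX3L and PARP14, against the distance of each start from that of DTX3L in kb on GENCODE's GRCh38 annotation, with filled points for an adjusted p under 0.05. PARP9, DTX3L and PARP14 stand at 1.39 to 2.26, while the neighbours range from -2.09 for CCDC58 to 0.60 for FAM162A.

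Both DNA-repair members fell in the knockdown. PARP1, the main sensor of DNA strand breaks, was at 231 and 226 CPM in control libraries 1 and 2, against 191 CPM in Knockdown-670 and 189 CPM in Knockdown-732, with replicates that differed by far less than the groups. It fell by 0.27 on the log2 scale (SE 0.07, edgeR adjusted p = 0.00293), so its level fell by 16.9%. PARP2, its paralogue with overlapping function in break repair, was at 31.1 and 34.5 CPM in control libraries 1 and 2, against 16.4 CPM in Knockdown-670 and 16.2 CPM in Knockdown-732, about the same in both knockdown libraries. PARP2 fell by 1.01 on the log2 scale (SE 0.12, edgeR adjusted p = 1.88e-06), so its level fell by 50.2%. The count ratio of PARP1 to PARP2 was 7.44 and 6.56 with control siRNA against 11.65 in each knockdown library, again with a smallest possible exact permutation p of 0.333. PARP1 pseudogenes are also listed in the table, and sharing of reads with them was not tested.

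Among partners of PARP1 and PARP2 in single-strand break repair and the replication-linked steps after it, 7 of 11 fell and 0 rose. Their median log2 fold change was -0.67, and over all tested genes 22.8% fell and 23.5% rose. LIG1, the ligase that joins Okazaki fragments, was at 73.7 and 74.4 CPM with control siRNA against 37.7 and 35.6 CPM in the knockdown and fell by 1.01 on the log2 scale. The flap endonuclease FEN1 fell by 1.12, the catalytic subunit of polymerase epsilon POLE by 0.85 and LIG3, the ligase that works with XRCC1, by 0.77 on the same scale. XRCC1, APEX1 and APTX did not pass, with log2 fold changes of -0.14, -0.13 and -0.24. XRCC1, the scaffold that binds poly(ADP-ribose), had 48.6 and 54.8 CPM with control siRNA against 48.6 and 45.4 CPM in the knockdown, and its groups overlapped. These 3 were named after their values were seen.

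PARP4, the ADP-ribosyltransferase of vault particles, was at 149 and 154 CPM in control libraries 1 and 2, against 177 CPM in Knockdown-670 and 186 CPM in Knockdown-732. The knockdown libraries were above the controls by a small margin, and PARP4 rose (log2 fold change 0.26, SE 0.07, edgeR adjusted p = 0.00452). Without library Knockdown-732 the adjusted p was 0.067. Among the other vault components, the major vault protein MVP went from 246 ± 7.18 CPM to 397 ± 21.5 CPM (SD, n = 2 each) and rose 1.61-fold (log2 fold change 0.69, SE 0.07, edgeR adjusted p = 1.9e-07). TEP1, shared by vaults and telomerase, did not pass (log2 fold change 0.18, edgeR adjusted p = 0.109). The vault RNAs were at or near 0: VTRNA1-1 had 0 counts in all 4 libraries, VTRNA1-2 had 1 count in 1 library, and VTRNA1-3 had 8 to 15 counts and did not pass (edgeR adjusted p = 0.738).

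TNKS, the tankyrase that modifies the telomere protein TRF1 and the WNT regulator axin, was at 87.1 and 84.7 CPM in control libraries 1 and 2, against 104 CPM in Knockdown-670 and 104 CPM in Knockdown-732. Replicates agreed within a few CPM, and TNKS rose 1.21-fold (log2 fold change 0.27, SE 0.07, edgeR adjusted p = 0.00478). Its paralogue TNKS2 was at 115 and 116 CPM with control siRNA against 125 and 136 CPM in the knockdown, above the controls in both knockdown libraries, but did not pass (log2 fold change 0.18, SE 0.07, edgeR adjusted p = 0.0509). TNKS2 rose in 4 of 15 alternatives, namely upper-quartile scaling, the filter of 5 CPM, the correction of GC content and length, and without Knockdown-670 (adjusted p 0.00173 to 0.837 over the alternatives). Of 11 tested tankyrase partners, TNKS2 included, 2 rose, 2 fell and 7 did not pass, with a median log2 fold change of 0.09. Beside this, 23.5% of all tested genes rose and 22.8% fell. TNKS1BP1, a tankyrase-binding protein, rose 1.33-fold and NUMA1, a spindle-pole substrate, 1.23-fold. The deubiquitinase USP25 fell by 0.75 and TERF1, which encodes TRF1, by 0.68 on the log2 scale. When GC content and length were corrected for, 1 partner rose and 6 fell.

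PARP8, a mono-ADP-ribosyltransferase of which little is known, was the scarcest member by CPM in the knockdown and close to PARP10 in the controls. It was at 3.25 and 2.04 CPM in control libraries 1 and 2, against 2.55 CPM in Knockdown-670 and 2.68 CPM in Knockdown-732, from 27 to 42 counts, and both knockdown values fell between the controls. PARP8 did not pass (log2 fold change -0.01, SE 0.31, edgeR adjusted p = 0.976). Counting error alone (exact Poisson, 95%) put PARP8 between 2.34 and 4.39 CPM and between 1.34 and 2.97 CPM in control libraries 1 and 2, and between 1.72 and 3.64 CPM and between 1.85 and 3.74 CPM in Knockdown-670 and Knockdown-732.

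The rest of the PARP family was read from a list of 8 genes, of which PARP15 had no count and 7 were tested. Of the 7, 4 rose, 1 fell and 2 did not pass, with a median log2 fold change of 0.32. Over all tested genes 23.5% rose and 22.8% fell. ZC3HAV1, the zinc-finger antiviral protein (PARP13) that binds CpG-rich viral RNA and lacks ADP-ribosyltransferase activity, was at 29.3 and 31.0 CPM in control libraries 1 and 2, against 95.7 CPM in Knockdown-670 and 109 CPM in Knockdown-732. Its groups were far apart, and it rose 3.40-fold (log2 fold change 1.76, SE 0.09, edgeR adjusted p = 2.59e-11), between PARP12 and DTX3L in size of log2 fold change. Its RefSeq window held no ISRE letters and a GAS match at positions -104 to -96. TIPARP (PARP7), induced by the aryl hydrocarbon receptor, was at 63.7 and 69.8 CPM with control siRNA against 104 and 115 CPM in the knockdown and rose 1.64-fold (log2 fold change 0.71, SE 0.08, edgeR adjusted p = 8.86e-07). PARP3, which like PARP1 and PARP2 is activated by DNA breaks, went from 18.8 ± 0.726 CPM to 25.9 ± 1.60 CPM (SD, n = 2 each) and rose 1.38-fold (log2 fold change 0.46, SE 0.12, edgeR adjusted p = 0.00463). PARP6 rose 1.25-fold (edgeR adjusted p = 0.00223). PARP16, anchored in the endoplasmic reticulum, was at 19.6 and 18.6 CPM with control siRNA against 14.3 and 14.0 CPM in the knockdown and fell by 0.43 on the log2 scale (SE 0.13, edgeR adjusted p = 0.0128), a call that was lost in 3 of 15 alternatives (DESeq2, the 1.2-fold minimum and without control library 1). PARP11, at 30 to 53 counts, did not pass (log2 fold change -0.55, edgeR adjusted p = 0.1).

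**Figure D4:**
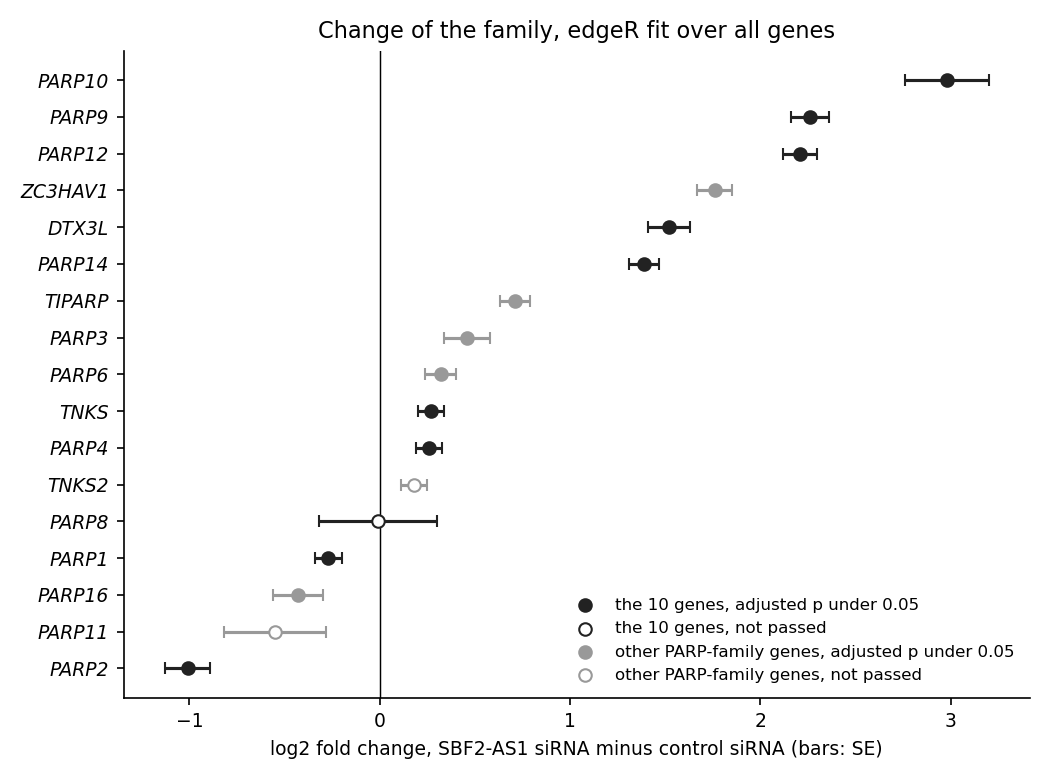
Log2 fold change (SBF2-AS1 siRNA minus control siRNA, bars are SE) of the 10 genes in black and of 7 other tested PARP-family genes in grey, with open points for genes that did not pass an adjusted p of 0.05. Values run from -1.01 for PARP2 to 2.98 for PARP10, and 6 genes, ZC3HAV1 among them, lie above 1.

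Levels of different genes were set side by side only per length, as CPM per kb of the longest protein-coding GENCODE transcript. That length is a stand-in, since the transcripts used in A549 are not known from the counts. In the controls the order was PARP1 (57.8 ± 0.942 CPM per kb, SD, n = 2), PARP4 (27.7 ± 0.621), PARP2 (16.6 ± 1.21), TNKS (8.93 ± 0.177), PARP14 (7.23 ± 0.58), PARP12 (6.46 ± 0.181), DTX3L (3.53 ± 0.56), PARP9 (3.15 ± 0.314), PARP10 (0.784 ± 0.358) and PARP8 (0.368 ± 0.119). Of the neighbours in that order, DTX3L and PARP9 overlapped between libraries, and each other gene lay above the next in both controls. With SBF2-AS1 siRNA, PARP1 (48.0 ± 0.331 CPM per kb) and PARP4 (33.2 ± 1.16) stayed the highest, and PARP12 (29.8 ± 0.906), PARP14 (18.9 ± 0.307) and PARP9 (15.1 ± 1.02) came next. They were followed by TNKS (10.8 ± 0.0181), DTX3L (10.1 ± 0.382), PARP2 (8.24 ± 0.0559), PARP10 (6.20 ± 0.664) and PARP8 (0.364 ± 0.013), with no overlap between neighbours. PARP12 thus moved from 6 to 3 in rank, PARP9 from 8 to 5 and PARP2 from 3 to 8. As a share of the summed CPM per kb of the 10 genes, PARP1 took 44.6% and 42.7% with control siRNA, against 27.04% in Knockdown-670 and 26.07% in Knockdown-732. PARP9, PARP10, PARP12, PARP14 and DTX3L together took 15.4% and 16.5% with control siRNA against 43.9% and 44.8% in the knockdown.

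The factors that carry the interferon signal to STAT were read as the pathway above the interferon-linked members. Of 12 listed genes 10 rose, 0 fell and 2 (TYK2 and STAT6) did not pass, with a median log2 fold change of 0.61. Over all tested genes 23.5% rose and 22.8% fell. STAT2 was at 29.3 and 32.6 CPM with control siRNA against 124 and 122 CPM in the knockdown and rose 3.97-fold, and IRF9, which completes the complex that binds the ISRE, rose 2.27-fold. IRF7, the inducible factor that amplifies interferon production, rose 7.72-fold from 8.15 ± 1.05 CPM (SD, n = 2), close to the factor for PARP10, and the ubiquitin-like ISG15 rose 21.7-fold. STAT6, the partner of PARP14, had 157 and 159 CPM with control siRNA against 166 and 154 CPM in the knockdown and did not pass (edgeR adjusted p = 0.828). STAT6 and TYK2 were named after their values were seen.

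Among the other deltex genes, DTX2 rose 1.37-fold (edgeR adjusted p = 0.000223) and DTX3 1.35-fold (edgeR adjusted p = 0.000716), less than the 2.86-fold of DTX3L. DTX1, at 17 to 49 counts, stood at 0.89 on the log2 scale (edgeR adjusted p = 0.0509) and DTX4 at -0.14 (edgeR adjusted p = 0.405), and neither passed. DTX1 rose in 5 of 14 alternatives, namely upper-quartile scaling, no filter, the exact test of edgeR, without control library 1 and without Knockdown-732 (adjusted p 0.00579 to 0.53 over the alternatives). Once GC content and length were corrected for, DTX3 no longer passed and DTX4 fell.

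A list of 18 genes was drawn up for ADP-ribose removal and reading, and not every gene on it does either. Of these 18, 2 rose, 4 fell and 12 did not pass, with a median log2 fold change of -0.08. Over all tested genes 23.5% rose and 22.8% fell. MACROD1, a mitochondrial ADP-ribose hydrolase, was at 14.1 and 12.3 CPM with control siRNA against 18.7 and 21.4 CPM in the knockdown and rose 1.52-fold, and ADPRHL2 (ARH3), which removes ADP-ribose from serine, rose 1.45-fold. OARD1, which frees glutamate-linked ADP-ribose, fell by 0.53 and the macrodomain histone H2AFY2 by 0.63 on the log2 scale. C4orf27, the older symbol of HPF1, which directs PARP1 and PARP2 to serine, fell by 0.64 and ADPRHL1 by 0.34 on that scale, both named after their values were seen. PARG, the main hydrolase of poly(ADP-ribose) chains, had 18.7 and 17.0 CPM with control siRNA against 21.9 and 17.3 CPM in the knockdown and did not pass (log2 fold change 0.13, edgeR adjusted p = 0.474); it too was named afterwards. Without control library 2, 1 of the 18 rose, and in DESeq2 2 in place of 4 fell.

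NAD+, the substrate of ADP-ribosyltransferases, is remade from nicotinamide by NAMPT, and NNMT methylates nicotinamide. Of 14 genes of NAD+ metabolism 6 rose, 3 fell and 5 did not pass, with a median log2 fold change of 0.25. Beside this, 23.5% of all tested genes rose and 22.8% fell. NNMT went from 183 ± 3.32 CPM to 53.0 ± 0.494 CPM (SD, n = 2 each) and fell by 1.79 on the log2 scale (SE 0.07, edgeR adjusted p = 1.93e-12). The deacetylase SIRT1, which also consumes NAD+, went from 43.2 ± 2.15 CPM to 21.3 ± 0.607 CPM (SD, n = 2 each) and fell by 1.02. NAMPT, named after its values were seen, fell by 0.32 on that scale, from 223 ± 1.39 CPM to 178 ± 1.96 CPM (SD, n = 2 each). NT5E, an ectonucleotidase, rose 1.71-fold and the synthetase NADSYN1 1.44-fold. Without library Knockdown-732, in DESeq2 and against a 1.2-fold minimum, 3 in place of 6 rose.

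The genes with the most similar profiles were sought among 11904 tested genes that averaged 5 CPM or more, by the root-mean-square difference in log2 CPM centred on the control mean over the 4 libraries. Nearest to PARP9 were LOX (0.032), a collagen cross-linking enzyme, its relative LOXL2 (0.07) and SAMD9L (0.077), an interferon-stimulated gene. PARP12 was 5th from PARP9 and DTX3L 136th. Nearest to PARP14 were DFNB31 (0.015), IGFBP1 (0.024) and MUC3A (0.034), with DTX3L 65th at 0.11. Nearest to PARP1 were GOT2, NFKB1 and EIF1, each at 0.007 or less. These distances rest on 4 libraries, are a description and carry no test. Ranked by log2 fold change among 16120 genes, PARP10 was 41st from the highest, PARP9 103rd, PARP12 112th, DTX3L 357th and PARP14 461st, and PARP2 was 805th from the lowest.

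**Figure D5:**
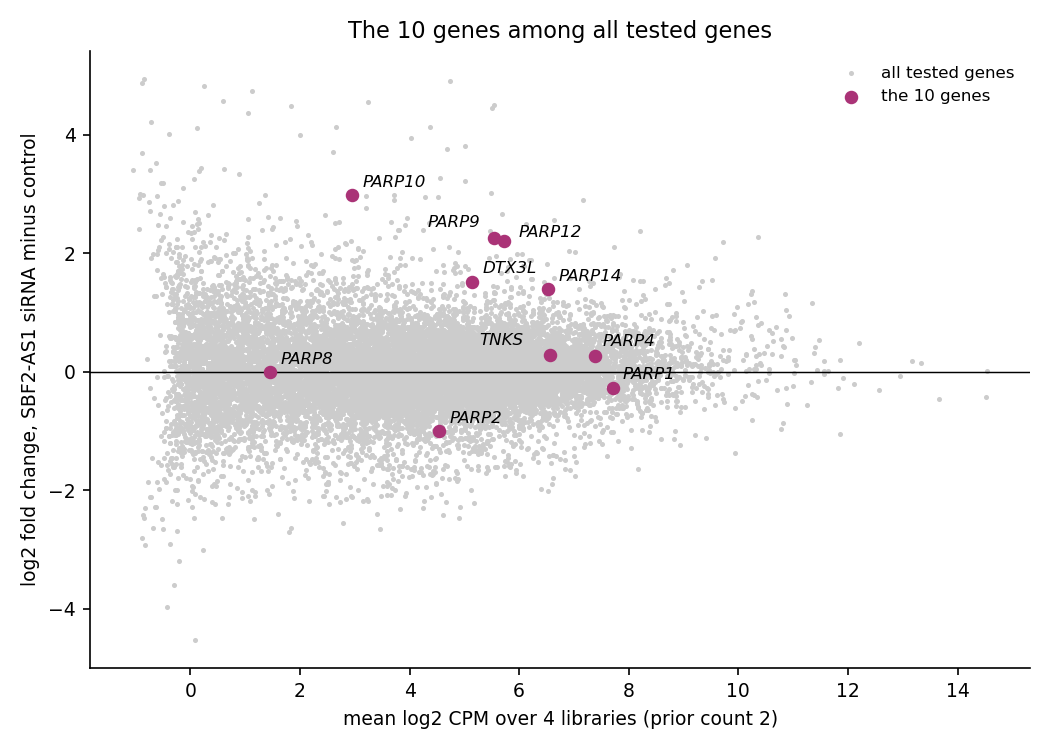
Log2 fold change against mean log2 CPM for all 16120 tested genes (grey) and the 10 genes (labelled points). PARP10, PARP9, PARP12, DTX3L and PARP14 lie at 1.39 to 2.98, above most grey points, and PARP2 lies at -1.01, below most of them.

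Tested against a fold change of 1.2 in place of no change, 5 of the 10 genes rose and 1 fell: PARP1 (edgeR glmTreat adjusted p = 0.425), PARP4 (0.461) and TNKS (0.397) no longer passed. The log2 fold changes of PARP9, PARP10, PARP12, PARP14, DTX3L and PARP2 passed in each of the 15 alternatives run.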

How the data were processed

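Gene expression was measured by RNA-seq of total RNA on the Ion Proton in 4 libraries. Raw counts for each gene symbol were deposited in 1 table; per the labels' protocols, RNA was extracted with Trizol, and per the submitters' processing notes the build was GRCh37. For the aligner, counter, annotation and strand use: not given in the sources used here. The 40205 symbols held 0 rows that name no gene and 0 columns of no sample. Groups came from the sample titles. The members and lists were chosen with earlier results of these data known.

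Counts were fitted in edgeR 4.0.16 (R 4.3.3): filterByExpr, TMM, robust glmQLFit and glmQLFTest, with Benjamini-Hochberg adjustment at 0.05 over 16120 genes. SE is the log2 fold change over the root of F. Profiles used log2 CPM with a prior count of 2. Replicates differed by more than counting noise (chi-square per gene 3.72 between controls and 3.42 between knockdown libraries), so no library was counted as a copy. With 2 libraries a group and 12149767 to 12938143 counts each, scarce genes such as PARP8 rest on 27 to 42 counts. The scripts were tested on simulated data. Some listed genes are not reported here by name.

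GENCODE 29 (GRCh38, not the authors' build) gave transcript lengths and gene order by symbol: 28572 symbols matched directly, 1296 through a synonym and 10337 not at all. Promoters came from RefSeq on GRCh38.p14. Genes were named by rule: all members, other PARP-family genes and 3q21.1 neighbours, lists of 5 or fewer in full, up to 4 called genes of smallest p from other lists, and the 3 nearest profiles. Alternatives changed the scaling (size factors from DESeq2, the upper quartile, or none beyond library size), the filter (none, or 5 CPM in at least 2 libraries), the tool (DESeq2 1.42.0, voom in limma 3.58.1, the exact test of edgeR, the fit without robust dispersion, or glmTreat for a 1.2-fold minimum) and further corrected for GC content and length by loess, or left out each library.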

Additional observations from a re-analysis of the deposited data

How the results depend on the processing

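The number of genes called stayed within 1.5 times of 7463 under 14 of 15 alternatives. Against a fold change of 1.2 it was 4680, and 1 member in place of 2 was lower, with 5 in place of 7 higher. The other alternatives kept 7 members higher and 2 lower, except that 6 were higher without library Knockdown-732. Leaving out each library in turn gave 6214 to 6749 called genes. With library size only, 43.2% of called genes were higher, against 50.7% with TMM, and the median of all genes moved to -0.065. The log2 fold change of PARP9 ran from 2.16 to 2.36 over the alternatives, PARP10 from 2.56 to 3.54, PARP12 from 2.02 to 2.23, DTX3L from 1.36 to 1.68, PARP14 from 1.31 to 1.47, PARP2 from -1.08 to -0.82, PARP1 from -0.33 to -0.26, TNKS from 0.21 to 0.29 and PARP4 from 0.20 to 0.29. PARP8 ran from -0.32 to 0.35 and passed in none of 14 alternatives (adjusted p 0.502 to 1.0); it was removed by the filter of 5 CPM. Against a fold change of 1.2, 2 other PARP-family genes rose in place of 4 and 1 tankyrase partner in place of 2. Once corrected for GC content and length, 1 gene of the interferon signalling list fell in place of 0. No paired analysis was possible because the groups share no replicate number. Depth limits PARP8, PARP10 and PARP11, which had at most 53 counts in each control. The causes of these differences were not tested.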

Other observations

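PARPBP, which encodes a PARP1-binding inhibitor of homologous recombination, was looked at after its values were seen. It was at 19.9 and 19.6 CPM in control libraries 1 and 2, against 6.88 CPM in Knockdown-670 and 5.91 CPM in Knockdown-732 and fell by 1.63 on the log2 scale (SE 0.15, edgeR adjusted p = 8.81e-08), more than PARP1 or PARP2. The PARP1 pseudogene PARP1P1, at 21 to 50 counts, fell by 0.86 on the log2 scale (SE 0.32, edgeR adjusted p = 0.0332), as PARP1 did. PARP1P2 held 5 to 18 counts, PARP4P1 1 to 6 and PARP4P2 8 to 18.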
